A study of Medicago ruthenica with 9 samples.

Results

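The miR159 family of Medicago ruthenica leaves was followed through drought and rewatering. Its members were all miRNA names in the deposited table whose family number, the digits right after miR or MIR, is that of miR159, whatever the species of the matching known miRNA. There were 8 such names of 595 in the table. They stood for 7 sequences, because 2 names carried the same sequence. The rule used names only and no measured value.

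The small RNA libraries came from leaves of M. ruthenica, a perennial legume forage, grown from seed of 1 cultivar, with no transgene or mutant named. Seedlings were 4 weeks old when treatment began. The control plants (CK) were watered every 3 days, the drought-stressed plants (DS) had no water for 15 days, and the rewatered plants (RW) had the same 15 days without water and were sampled 2 days after water was given again. Each group had 3 libraries, described as biological replicates. RW leaves were thus also older than CK and DS leaves at sampling, and age and rewatering cannot be told apart.

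miR159 silences mRNAs of GAMYB transcription factors, MYB proteins first known from the gibberellin response of cereal grains. In Arabidopsis it keeps MYB33 and MYB65 off in leaves, where plants without the miRNA have curled leaves and poor growth, while the same MYB proteins are needed in anthers. In germinating Arabidopsis seeds the family takes part in the abscisic acid response, the hormone response that drought also calls on. Plant miRNAs pair with their targets along nearly the whole length and mostly lead to cleavage of the mRNA. miR319 is a related family that silences TCP transcription factors of leaf growth.

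The sequences are shown because the members differ by only a few bases, and these differences decide which names can be set side by side. Bases 2 to 8 from the 5′ end, the seed, are in capitals, and the prefix of a name gives the species of the known miRNA that was matched (mtr, Medicago truncatula; gma, soybean; lus, flax; ath, Arabidopsis; cme, melon; vvi, grapevine). The letters that end a longer name give bases added or missing at the left (L) or right (R) end and substitutions (ss) against that known miRNA.
mtr-miR159a: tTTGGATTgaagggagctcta
gma-miR159a-3p_1ss21AT: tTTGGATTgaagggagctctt
lus-miR159b_R+2_1ss21CA: tTTGGATTgaagggagctctatt
ath-miR159c_L+1R-1_1ss2TA: tATTGGATtgaagggagctcc
cme-miR159b_L+1R-1: tATTGGATtgaagggagctcc
vvi-miR159a_L-1_1ss7GC: tTGGACTGaagggagctctc
mtr-MIR159a-p5_1ss17GA: aGCTGCTTagctatggatccct
gma-miR159d: aGCTGCTTagctatggatccc
mtr-miR319a-3p: tTGGACTGaagggagctccc

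The members formed 4 seed groups. The seed TTGGATT belonged to mtr-miR159a, gma-miR159a-3p_1ss21AT and lus-miR159b_R+2_1ss21CA, and to no other name in the table. Counted from the 5′ end of mtr-miR159a, the gma-miR159a-3p_1ss21AT sequence differed by the 1 substitution A21T. The lus-miR159b_R+2_1ss21CA sequence was all 21 bases of mtr-miR159a with 2 more bases at the 3′ end. These 3 names thus differ at the 3′ end only.

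The sequence held by both ath-miR159c_L+1R-1_1ss2TA and cme-miR159b_L+1R-1 shared a run of 18 bases with mtr-miR159a, bases 2 to 19 of the latter, but began 1 base earlier. Its seed was thus ATTGGAT. This run of 18 bases was present in 5 names of the table, and all 5 were miR159 members. The pair of names was listed with different assembled transcripts, TRINITY_DN10613_c0_g1 for the first and TRINITY_DN16207_c2_g1 for the second, and the latter is annotated as MYB33. MYB33 is a target of miR159 in Arabidopsis, so the listed transcript may not be a precursor, which was not tested. Since both names hold 1 sequence with 1 set of values, they are given once below.

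The vvi-miR159a_L-1_1ss7GC sequence, of 20 bases, stood between both families. Laid against mtr-miR159a from its second base, it carried T7C and A21C, positions being those of mtr-miR159a. Against mtr-miR319a-3p, the miR319 name, it differed only by C19T, and both had the seed TGGACTG. By sequence it was thus closer to the listed miR319a than to the listed miR159a.

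The other arm of the precursor gave the 2 remaining names. The gma-miR159d sequence of 21 bases was the first 21 bases of mtr-MIR159a-p5_1ss17GA, which was 1 base longer, and the suffix p5 marks the 5′ arm. Both were listed with the transcript TRINITY_DN23620_c0_g4, the same as mtr-miR159a and gma-miR159a-3p_1ss21AT. Their longest run in common with mtr-miR159a was 5 bases, so a read of one arm cannot be taken for the other.

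The values are normalized counts, read counts that the authors scaled with a single factor for each library. The table summed to 1237470 to 1718280 per library, with the highest total in RW replicate 2. Names above 0 numbered 283 to 305 in the DS libraries, 347 to 376 in the RW libraries and 423 to 489 in the CK libraries, while the lowest listed value above 0 was 3.94 to 4.21 in the DS libraries, 2.30 to 3.09 in the RW libraries and 0.652 to 1.55 in the CK libraries. A low value could therefore be listed in CK and not in DS, and low members are read with that in view. The table holds miRNAs only, so the leaf label was not checked against marker mRNAs. Read totals are given by the study per group and not per library, with the fewest valid reads in DS, and their part in the lowest listed values was not tested. The depth of single libraries is not known here, so no counting interval is given.

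mtr-miR159a was the second most abundant name in all 9 libraries. Its normalized count was 196058, 257206 and 267912 in CK replicates 1 to 3. In DS it was 353231, 256830 and 201372, and in RW it was 240848, 173608 and 211351. The highest value and one of the lower values both came from DS, and the ranges of the 3 groups overlapped. The DS mean was 270478 ± 76844, the CK mean 240392 ± 38766 and the RW mean 208602 ± 33705 (SD, n = 3 each).

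As a share of the table total, mtr-miR159a held 13.0, 20.8 and 18.7% in CK, 27.6, 17.2 and 14.3% in DS, and 18.5, 10.1 and 16.9% in RW. Its mean share was 19.7 ± 7.01% in DS, 17.5 ± 4.01% in CK and 15.2 ± 4.45% in RW (SD, n = 3 each). Only mtr-miR166a, which silences HD-ZIP III factors of leaf development, was higher, with mean shares of 61.0% in RW, 56.6% in CK and 54.9% in DS. A share of leaf RNA cannot tell fewer cells that hold a miRNA from less of it per cell.

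**Figure D1:**
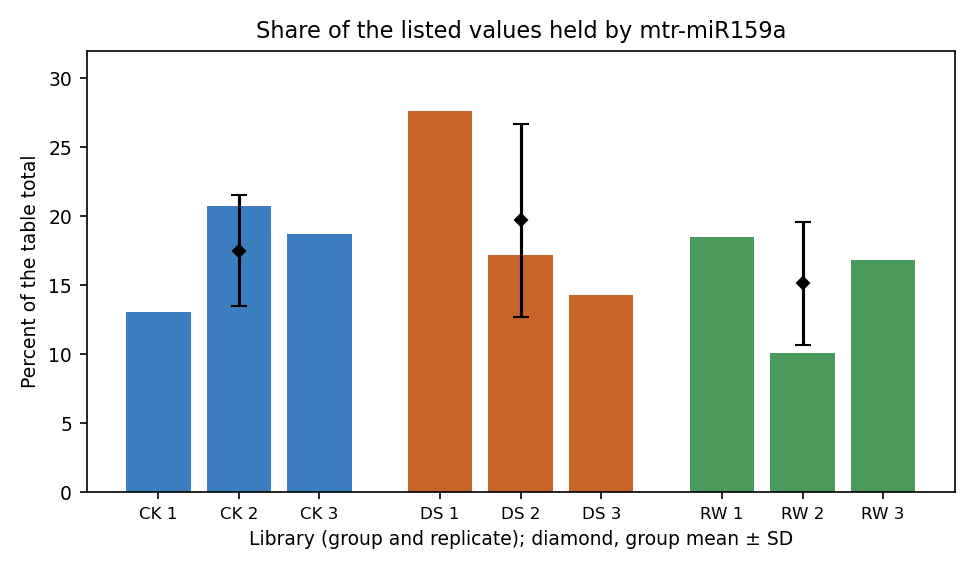
Share of mtr-miR159a in each of the 9 libraries, as percent of the table total (y axis), by group and replicate (x axis). Bars are single libraries and diamonds with bars are the group mean ± SD. The 3 DS libraries ran from 14.3 to 27.6%, a range that took in all CK libraries but the lowest, at 13.0%, and all RW libraries but the lowest, at 10.1%.

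This single sequence made up 99.1 to 99.5% of the family in every library. The 7 sequences together held 19.8 ± 7.02% of the table in DS, 17.6 ± 4.01% in CK and 15.3 ± 4.48% in RW. A family total is in effect a reading of mtr-miR159a, and the other members have to be read one by one.

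The gma-miR159a-3p_1ss21AT form, which ends in T in place of A, was listed at 824, 580 and 612 in CK. In DS it was at 861, 1001 and 968, and in RW at 671, 568 and 649. All 3 DS libraries lay above all 6 CK and RW libraries. The DS mean was 943 ± 73.3, beside 672 ± 133 for CK and 629 ± 54.0 for RW (SD, n = 3 each). It ranked between 35 and 49 in the table across the libraries.

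The longer lus-miR159b_R+2_1ss21CA form was listed at 527, 302.5 and 476 in CK. Its values were 490, 517 and 359 in DS and 464, 383 and 350 in RW. The groups overlapped throughout, with means of 435 ± 118, 455 ± 84.8 and 399 ± 58.5 (SD, n = 3 each).

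On the other arm, gma-miR159d was listed at 333, 399 and 377 in CK, at 292, 258 and 253 in DS, and at 376, 189 and 327 in RW. All 3 DS libraries were below all 3 CK libraries, while RW had both a high and a low library. Its mean was 268 ± 20.9 in DS, 369 ± 33.5 in CK and 297 ± 97.0 in RW (SD, n = 3 each).

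The longer form of that arm, mtr-MIR159a-p5_1ss17GA, was listed at 102, 107 and 97.1 in CK and at 104, 99.4 and 80.3 in DS. In RW its values were 98.5, 20.3 and 42.0. CK and DS overlapped, whereas RW replicate 1 was at the level of CK and the other RW libraries were lower. RW replicate 2 was the lowest RW library for mtr-miR159a, gma-miR159a-3p_1ss21AT, gma-miR159d and mtr-MIR159a-p5_1ss17GA. That library also had the highest table total, and the part of this in the values was not tested.

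The sequence of ath-miR159c_L+1R-1_1ss2TA and cme-miR159b_L+1R-1 was the lowest that was tested. It was listed at 3.65, 3.10 and 3.52 in CK, at 17.3, 64.9 and 8.03 in DS, and at 5.98 and 9.59 in RW replicates 1 and 2, with RW replicate 3 listed at 0. All DS libraries were above all CK libraries, but the DS values spread widely, with a mean of 30.1 ± 30.5 against 3.42 ± 0.289 in CK (SD, n = 3 each). The CK values were themselves below the smallest value above 0 of every DS library. vvi-miR159a_L-1_1ss7GC was listed in CK replicate 1 alone, at 0.652, the smallest value above 0 of that library, and at 0 in the other 8 libraries.

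**Figure D2:**
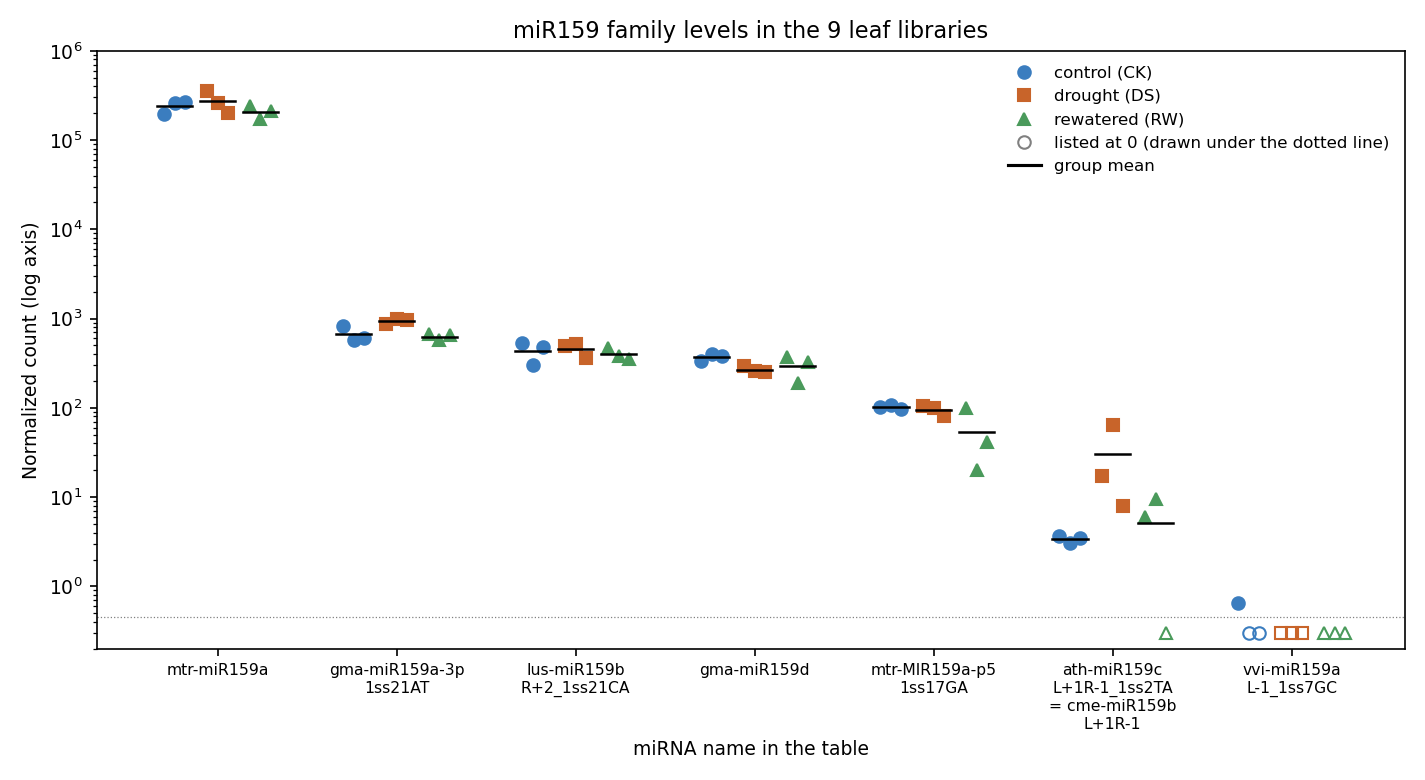
Normalized count (y axis, log scale) of the 7 miR159 sequences (x axis) in the 3 CK, 3 DS and 3 RW libraries. Points are libraries, short lines are group means, and open symbols under the dotted line are libraries listed at 0. mtr-miR159a lies between 173608 and 353231, and the next form lies between 568 and 1001.

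From these values the order of levels was mtr-miR159a, then gma-miR159a-3p_1ss21AT, lus-miR159b_R+2_1ss21CA, gma-miR159d, mtr-MIR159a-p5_1ss17GA, the ath and cme sequence, and vvi-miR159a_L-1_1ss7GC. mtr-miR159a was above gma-miR159a-3p_1ss21AT, and gma-miR159a-3p_1ss21AT above lus-miR159b_R+2_1ss21CA, in 9 of 9 libraries with no overlap of their ranges. lus-miR159b_R+2_1ss21CA and gma-miR159d overlapped in range, the former being higher in 8 of 9 libraries. gma-miR159d was above mtr-MIR159a-p5_1ss17GA without overlap, and the latter was above the ath and cme sequence in 9 of 9 libraries, although their ranges overlapped. The lengths of these sequences, 20 to 23 bases, are alike, so no correction for length was made.

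Drought was compared with control, drought with rewatering, and rewatering with control, to ask which miRNAs respond to water loss and to its return. The comparisons share libraries and are not independent of one another. A name was tested where 3 or more libraries had a value of 5 or more, which left 339 of 595 names in all and 7 of the 8 miR159 names, or 6 sequences. vvi-miR159a_L-1_1ss7GC was not tested. Unless a ratio test or an alternative is named, an adjusted p below is from limma on log2 (value + 1), with a threshold of 0.05. It was adjusted by the Benjamini-Hochberg method over all 339 names.

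No miR159 sequence passed the test in any comparison, by limma 0 of 6 each time. Over all tested names 5.31% passed in RW vs. CK (18 names), 5.31% also in DS vs. CK (18 names) and 2.36% in DS vs. RW (8 names). At an unadjusted limma p under 0.05, 1 of the 6 sequences was past the line in DS vs. CK, against 19.5% of all tested names. The count was 2 of 6 for DS vs. RW, against 14.2%, and 1 of 6 for RW vs. CK, against 15.6%. The ath and cme sequence was the 1 in DS vs. CK and 1 of the 2 in DS vs. RW. It was tested only because of its DS values. By the test named in the study's methods, on unlogged values and with unadjusted p, gma-miR159d was past the line in DS vs. CK. So were 5.81% of the 568 names that gave a p there. In DS vs. RW gma-miR159a-3p_1ss21AT was past the line by that test, as were 4.12% of the 510 names that gave a p. The 18 names of DS vs. CK became 0, 2 and 5 without CK replicates 1, 2 and 3 and 11 without RW replicate 1. The 8 of DS vs. RW became 0 without RW replicate 1 or 2, 4 without RW replicate 3, 5 without DS replicate 3 and 14 without DS replicate 1. The 18 of RW vs. CK became 5, 6 and 6 without CK replicates 1, 2 and 3, and 8 and 10 without RW replicates 2 and 3.

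In DS vs. CK, the leading member mtr-miR159a had a log2 difference of 0.15 (SE 0.27, 95% interval -0.44 to 0.73, limma adjusted p = 0.779). The interval allows a change of the family's main form in either direction, and the estimate was -0.0667 without DS replicate 1. gma-miR159a-3p_1ss21AT was 1.42-fold higher in DS, a log2 difference of 0.50 (SE 0.24, 95% interval -0.03 to 1.04, limma adjusted p = 0.283). gma-miR159d had a log2 difference of -0.46 (SE 0.31, 95% interval -1.14 to 0.21, limma adjusted p = 0.433). These 2 forms come from opposite arms and the same listed transcript, and their estimates had opposite signs.

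The ath and cme sequence had the largest estimate of the family in DS vs. CK, 2.33 on the log2 scale (SE 0.99, 95% interval 0.14 to 4.52). This sequence met the filter for testing only through its DS libraries, since every CK value was under 5 and RW replicate 3 was at 0. Its unadjusted limma p was 0.0393 and its adjusted p 0.234, and the estimate was 1.54 without DS replicate 2, the library at 64.9. With all low values raised to 4.21, the highest of the smallest values above 0, its adjusted limma p was 0.0501, the lowest of any alternative. The remaining estimates in DS vs. CK were 0.09 for lus-miR159b_R+2_1ss21CA (limma adjusted p = 0.914) and -0.12 for mtr-MIR159a-p5_1ss17GA (limma adjusted p = 0.925).

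DS and CK did not overlap for 3 of the 6 sequences, of which 2 were higher and 1 lower in DS. Of the 2, the ath and cme sequence was tested only because of its DS values. Its CK values were under the smallest value above 0 of every DS library, so any listed DS value had to lie above them. Over all tested names 9.73% were higher and 18.3% lower without overlap. The median log2 difference of the 6 sequences was 0.12, with 4 above 0 and 2 below, and that of all tested names was -0.36. The median of all tested names was nearer to 0 where low values counted less, at -0.12 with values under 4.21 set to 4.21 and -0.13 with a minimum of 20.

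In DS vs. RW, mtr-miR159a had a log2 difference of 0.35 (SE 0.27, 95% interval -0.24 to 0.94, limma adjusted p = 0.588). gma-miR159a-3p_1ss21AT had a log2 difference of 0.58 (SE 0.24, 95% interval 0.05 to 1.12, limma adjusted p = 0.281). It was the only member whose DS and RW libraries did not overlap, against 6.19% of all tested names that were higher and 9.14% that were lower without overlap. The ath and cme sequence had an estimate of 2.40 (SE 0.99, 95% interval 0.21 to 4.59, limma adjusted p = 0.281), which was 1.37 without RW replicate 3, the library listed at 0, and 1.62 without DS replicate 2.

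mtr-MIR159a-p5_1ss17GA had an estimate of 1.08 in DS vs. RW (SE 0.50, 95% interval -0.03 to 2.19, limma adjusted p = 0.352), and it rested on the RW libraries, since it was 0.54 without RW replicate 2 and 1.65 without RW replicate 1. The other estimates were 0.18 for lus-miR159b_R+2_1ss21CA (limma adjusted p = 0.796) and -0.09 for gma-miR159d (limma adjusted p = 0.917). The median over the 6 sequences was 0.47, with 5 above 0 and 1 below, beside -0.16 for all tested names. The 6 include the ath and cme sequence, which was tested only because of its DS values, and they share libraries. The median of all tested names was -0.06 with values under 4.21 set to 4.21 and -0.03 with a minimum of 20. It was 0.0367 under upper-quartile scaling and -0.23 under TMM scaling, so the 2 medians give no result about the family.

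In RW vs. CK, all 6 estimates were below 0, as were 199 of the 339 tested names, with 140 above 0. The 6 share libraries and scaling, so their signs are not independent. None of the groups were free of overlap, against 21.2% of all tested names. mtr-miR159a had a log2 difference of -0.20 (SE 0.27, 95% interval -0.79 to 0.38, limma adjusted p = 0.782). gma-miR159a-3p_1ss21AT, at -0.08 (limma adjusted p = 0.908), had a 95% interval of -0.61 to 0.45, so its level 2 days after rewatering was not told apart from that of the control. lus-miR159b_R+2_1ss21CA was at -0.10 (limma adjusted p = 0.908), gma-miR159d at -0.37 (limma adjusted p = 0.641) and the ath and cme sequence at -0.07 (limma adjusted p = 0.970). The signs for gma-miR159a-3p_1ss21AT and for the ath and cme sequence turned under some scalings, with log2 differences of 0.0147 and 0.0134 under median-of-ratios scaling.

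The largest estimate in RW vs. CK was that of mtr-MIR159a-p5_1ss17GA, -1.20 (SE 0.50, 95% interval -2.30 to -0.09, limma adjusted p = 0.280). Without RW replicate 1, the RW library at the control level, it was -1.77 with a limma adjusted p of 0.0451, and without RW replicate 2 it was -0.66 with 0.683. The median of the 6 estimates was -0.15, beside -0.11 for all tested names.

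**Figure D3:**
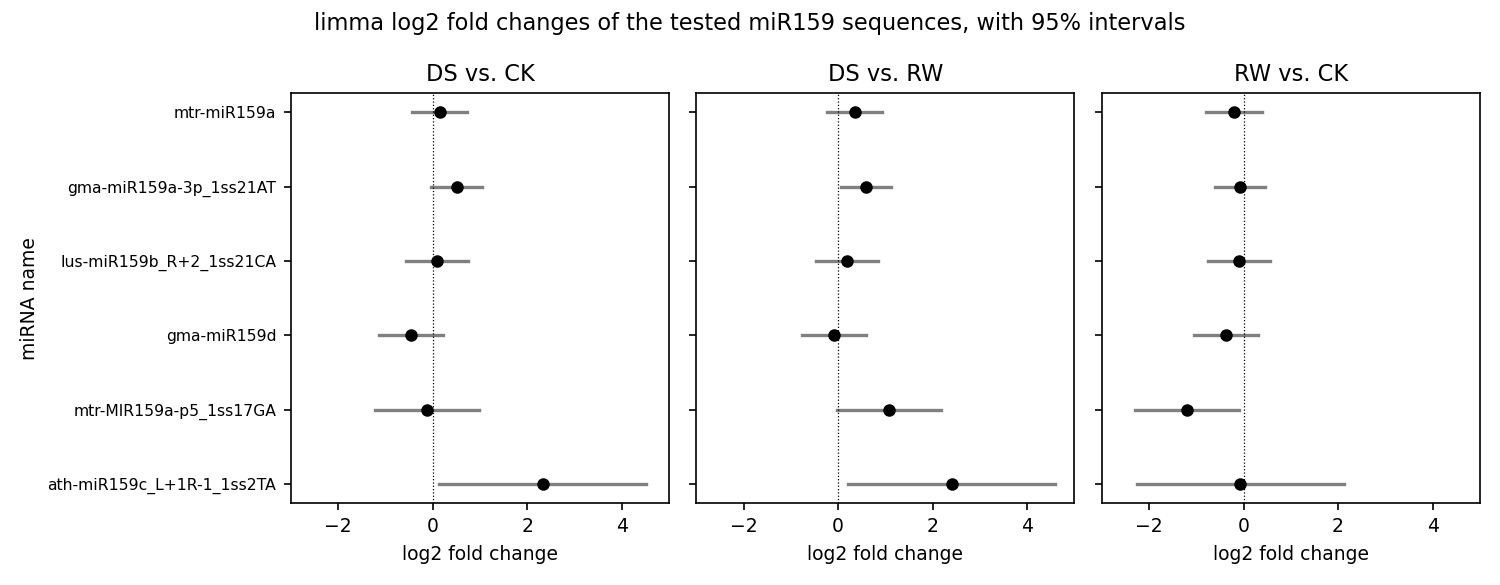
limma log2 fold changes (x axis) of the 6 tested miR159 sequences (y axis) in the 3 comparisons, 1 panel each. Points are estimates and grey lines are 95% intervals. The points of mtr-miR159a, at 0.15 (DS vs. CK), 0.35 (DS vs. RW) and -0.20 (RW vs. CK), have intervals across 0. The interval of the ath and cme sequence in DS vs. CK runs from 0.14 to 4.52, with a limma adjusted p of 0.234. That sequence was tested only because of its DS values, and its CK values lay under the smallest value above 0 of every DS library.

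The ratio of a form to mtr-miR159a in the same library does not depend on how the library was scaled. It was compared between groups for the 4 forms that were above 0 in every library, in 12 exact permutation tests, where 3 libraries against 3 allow no p below 0.1. None could pass, and the smallest p after Benjamini-Hochberg adjustment over these 12 tests was 0.75.

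The ratio of gma-miR159d to mtr-miR159a was 0.170, 0.155 and 0.141% in CK, 0.0826, 0.1004 and 0.126% in DS, and 0.156, 0.109 and 0.155% in RW. The DS libraries were all below the CK libraries, with a difference of -0.61 on the log2 scale (2-sided exact permutation p = 0.1, adjusted p = 0.75), while DS and RW overlapped. This was the only 1 of the 12 ratio comparisons without overlap.

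The ratio of gma-miR159a-3p_1ss21AT to mtr-miR159a was 0.420, 0.225 and 0.228% in CK, 0.244, 0.390 and 0.481% in DS, and 0.278, 0.327 and 0.307% in RW. Here the groups overlapped in all comparisons, unlike the levels of this form in DS against CK and against RW. DS replicate 1, with the highest level of mtr-miR159a, had the lowest of the DS ratios, and CK replicate 1, with the lowest CK level of mtr-miR159a, had the highest of the CK ratios. For lus-miR159b_R+2_1ss21CA the ratios ran from 0.118 to 0.269% and for mtr-MIR159a-p5_1ss17GA from 0.0117 to 0.0522% over the 9 libraries.

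**Figure D4:**
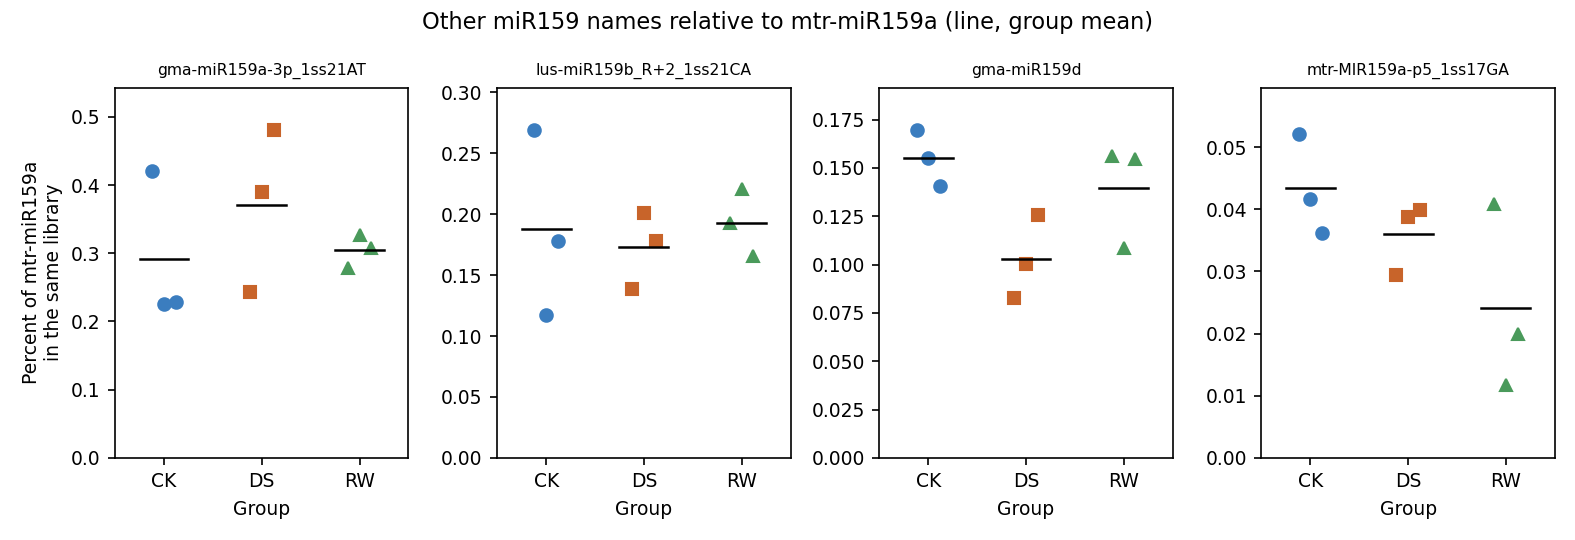
Level of 4 miR159 forms as percent of mtr-miR159a in the same library (y axis, each from 0) by group (x axis). Points are libraries and lines are group means. For gma-miR159d the DS libraries, at 0.0826 to 0.126%, lie below the CK libraries, at 0.141 to 0.170%, and the other 3 forms overlap. The DS and CK difference of gma-miR159d had a 2-sided exact permutation p of 0.1, adjusted p = 0.75.

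Of the 2 forms of the 5′ arm, the shorter gma-miR159d made up 76.5, 78.8 and 79.5% in CK, 73.7, 72.2 and 75.9% in DS, and 79.2, 90.3 and 88.6% in RW. The DS libraries were thus all below the others, but narrowly, with 75.9% in DS replicate 3 beside 76.5% in CK replicate 1. RW replicates 2 and 3 were the highest, where the longer form was listed at only 20.3 and 42.0. Such splits were not computed for other names. This split was described after its values were seen and was given no test.

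Across the 9 libraries, mtr-miR159a was most alike in log2 level to mtr-miR1510b-3p_1ss8CA (Pearson r = 0.81, Spearman rho = 0.80), PC-3p-15383_407 (r = 0.80, rho = 0.63) and mtr-MIR5267c-p5 (r = 0.78, rho = 0.80). Within the family its r ran from 0.19 with gma-miR159a-3p_1ss21AT to 0.64 with mtr-MIR159a-p5_1ss17GA. The main form and its end variant thus did not follow each other closely, although their first 20 bases are the same. These correlations describe 9 libraries in 3 groups that share their scaling within a library, and no test was made of them.

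gma-miR159a-3p_1ss21AT was most alike to lus-miR396b_R+1_1ss19CT (r = 0.89, rho = 0.88), mtr-MIR156e-p3 (r = 0.84, rho = 0.70) and mtr-MIR2111n-p3 (r = 0.79, rho = 0.92) over the 9 libraries. Each of these 3 names had its highest group mean in DS. That is no separate result, because they were picked for likeness to a form that was itself highest in DS. lus-miR396b_R+1_1ss19CT, of a family that silences growth-regulating factors, had a DS mean of 1088 ± 191, a CK mean of 691 ± 20.8 and an RW mean of 665 ± 18.2 (SD, n = 3 each). With gma-miR159d, from the opposite arm, the r of gma-miR159a-3p_1ss21AT was -0.25.

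The related miR319 family had 3 names, all tested, and none passed in any comparison. mtr-miR319a-3p, its most abundant name, had a CK mean of 1063 ± 274, an RW mean of 877 ± 75.4 and a DS mean of 862 ± 327 (SD, n = 3 each). Its log2 difference in DS vs. CK was -0.34 (limma adjusted p = 0.553). It was -0.25 for RW vs. CK (limma adjusted p = 0.782) and -0.09 for DS vs. RW (limma adjusted p = 0.929). pvu-miR319c_L-1R+1_1ss14AT had the lowest unadjusted p of the family, with a log2 difference of 1.18 in RW vs. CK (95% interval 0.10 to 2.27, limma adjusted p = 0.280). The miR319 names were thus also without a call, at levels far below mtr-miR159a in every library.

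miR828 and miR858, which silence MYB mRNAs of other kinds, had 0 names in the table. miR156 and miR172, the pair that sets the change from juvenile to adult leaves and that MYB33 is linked to in Arabidopsis, had 26 names, of which 19 were tested. None of the 19 passed in DS vs. CK by limma, against 5.31% of all tested names. At an unadjusted limma p under 0.05 there were 5 of 19 in DS vs. CK, against 19.5% of all tested names. There were 6 in DS vs. RW, against 14.2%, and 2 in RW vs. CK, against 15.6%. The DS vs. RW comparison had 1 that passed, against 2.36%, mtr-MIR156e-p3, which was higher in DS by 2.43 on the log2 scale (SE 0.49, limma adjusted p = 0.0199). That call was lost in 6 of 24 alternatives, with adjusted limma p of 0.0630 without RW replicate 1, 0.0780 without RW replicate 2 and 0.0890 when DS replicate 3 was left out, and up to 0.113 in a fit of only the groups compared. In RW vs. CK 1 passed, against 5.31% of all tested names, csi-MIR156c-p5_2ss3TA18TG, which was higher in RW by 2.24 (SE 0.56, limma adjusted p = 0.0426). It was lost in 11 of 24 alternatives, among them the fits without CK replicate 1, 2 or 3, without RW replicate 1, 2 or 3 and without DS replicate 1, with adjusted limma p up to 0.143. Both names are of the kind that marks an arm of a miR156 precursor.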

How the data were processed

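Small RNA libraries of 3 CK, 3 DS and 3 RW leaf samples were used. With ACGT101-miR, the authors took out adapter dimers, junk, common RNA families and repeats, kept reads of 18 to 25 nt and matched them to known miRNAs and assembled transcripts. The deposited values are a signal: read counts scaled with a single factor for each library. The ACGT101-miR version and the choice of factor are not given in the sources used here. No column held fold changes or p-values.

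The table of 667 lines was reduced to 595 names and 543 sequences. log2 (value + 1) of the 339 names at 5 or more in 3 or more libraries was fitted with limma 3.58.1 (trend, R 4.3.3) in 1 model of 3 groups, and tested on simulated data first. Ratios were tested with scipy 1.17.1 and figures drawn with matplotlib 3.10.9 in Python 3.11.15. Alternatives were 5 other scalings (TMM here an unweighted trimmed mean of log ratios), other pseudocounts and filters, 1 line per sequence, only the groups compared, no trend, a replicate block, the methods' test, and each library left out. Raising low values to a common level was added after seeing the data.

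All members were named. Of other names, tested miR319 names, passing miR156 or miR172 names, and the 3 names most correlated with mtr-miR159a and with gma-miR159a-3p_1ss21AT were named. Members and lists were chosen with earlier results of these data known, and gma-miR159a-3p_1ss21AT was taken for its likeness because the study names it.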

Additional observations from a re-analysis of the deposited data

How the results depend on the processing

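Values under the alternatives were counted by member name. The ath and cme names were counted separately, so each sign change of their 1 sequence entered under both names. Of these values, 492 kept their direction and their side of the threshold, 21 changed sign and 3 came past the threshold. The 3 were gma-miR159d in DS vs. CK (-0.46) and gma-miR159a-3p_1ss21AT in DS vs. RW (0.58), both under the test of the study's methods and without adjustment, and mtr-MIR159a-p5_1ss17GA in RW vs. CK without RW replicate 1. Signs changed for lus-miR159b_R+2_1ss21CA in DS vs. CK with TMM scaling (-0.0399), gma-miR159d in DS vs. RW with upper-quartile scaling (0.14), gma-miR159a-3p_1ss21AT in RW vs. CK with median-of-ratios scaling (0.0147) and with the total without miR159 and miR166 (0.0153), and the ath-miR159c_L+1R-1_1ss2TA and cme-miR159b_L+1R-1 sequence in RW vs. CK with median-of-ratios scaling (0.0134), a pseudocount of 5 (0.14), raised low values (0.48) and the methods' test (0.60).

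With each library left out, log2 differences in DS vs. CK ran from -0.0667 to 0.34 for mtr-miR159a and from -0.15 to 0.25 for lus-miR159b_R+2_1ss21CA; in DS vs. RW from -0.39 to 0.10 for gma-miR159d; and in RW vs. CK from -0.18 to 0.0758 for gma-miR159a-3p_1ss21AT, -0.34 to 0.0622 for lus-miR159b_R+2_1ss21CA and -0.74 to 0.96 for the ath and cme sequence. Log2 ratio differences to mtr-miR159a ran from -0.0291 to 0.42 for gma-miR159a-3p_1ss21AT in RW vs. CK, -0.36 to 0.24 in DS vs. CK and -0.19 to 0.41 in RW vs. CK for lus-miR159b_R+2_1ss21CA, and -0.25 to 0.00598 for gma-miR159d in RW vs. CK.

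With 1 library left out, calls over all names ran from 0 to 23 for DS vs. CK (18 in the report), from 0 to 14 for DS vs. RW (8) and from 5 to 22 for RW vs. CK (18). For DS vs. CK they were 11 with only the groups compared and 33 by the methods' test. For DS vs. RW they were 4 with only the groups compared, 4 with a minimum of 20 and 21 by the methods' test. For RW vs. CK they were 5 without the trend, 29 with raised low values and 40 by the methods' test. The cause of these moves was not tested. Higher against lower calls in DS vs. CK were 7 and 11, but 12 and 11 under upper-quartile scaling, 3 and 30 by the methods' test and 3 and 12 without the trend, and in DS vs. RW 3 and 5 became 1 and 5 with table totals, 0 and 6 without the trend and 5 and 16 by the methods' test. Upper-quartile scaling moved the median log2 difference of all names from -0.16 to 0.0367 in DS vs. RW, from -0.36 to -0.26 in DS vs. CK and from -0.11 to -0.22 in RW vs. CK, and TMM moved that of DS vs. CK to -0.49.

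Pairing by number was looked at in the deviations of log2 values from the group mean of each name. These correlated at -0.15 to 0.06 between same-numbered libraries of different groups and at -0.14 to 0.19 between differently numbered ones. No sign of pairing was thus seen, although 3 libraries a group cannot settle it. With the number as a replicate block, 17, 7 and 18 names passed and no member's call changed. With the total taken without miR166 names, the family held 41.0, 43.9 and 39.3% in CK, DS and RW and mtr-miR159a 40.7, 43.6 and 39.0%. The count test planned in case whole reads could be recovered was not run. With 3 libraries a group, no read depth per library and a lowest listed value that differs between groups, small changes and low members are not resolved.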

Other observations

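Of the low values of a library, 95.3 to 98.9% lay on whole multiples of a step of 1 size. The step was itself fitted to the low and high values of that library, so lying on whole steps is in part built in. The 0.652 of vvi-miR159a_L-1_1ss7GC in CK replicate 1 was 2.5 steps. In units of that step, mtr-miR159a, gma-miR159d and mtr-MIR159a-p5_1ss17GA were even numbers in all 9 libraries, within a tolerance of 0.1 step. Of the 175 sequences above 0 in all 9 libraries, 91 (52%) were so. gma-miR159a-3p_1ss21AT was even in 7 of 9 libraries, and the sequence of ath-miR159c_L+1R-1_1ss2TA and cme-miR159b_L+1R-1 in 5 of the 8 libraries where it was above 0.

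No sequence in the table held 12 or more bases in a row of the reverse complement of mtr-miR159a.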
